A study of Mus musculus with 3 samples.

Results

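The MAP kinase phosphatases are a family of dual-specificity phosphatases that switch off the MAP kinases ERK, JNK and p38 by removing phosphate from the threonine and the tyrosine of the activation loop. Many of their genes are themselves induced by MAP kinase signaling, so that a burst of kinase activity is followed by the enzyme that ends it, and Dusp6 is widely used as a transcript readout of ERK activity. The family is usually divided by location and substrate into inducible nuclear enzymes (Dusp1, Dusp2, Dusp4 and Dusp5), cytoplasmic enzymes that act on ERK (Dusp6, Dusp7 and Dusp9), and enzymes that act mainly on JNK and p38 (Dusp8, Dusp10 and Dusp16). These 10 genes were read by their names in the table, out of 43472 genes listed, and each name occurred in 1 row.

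The transcripts came from primary fibroblasts of tail tips of C57BL/6 mice, scratched in culture as an in vitro wound and given the soluble micrograft (MG), a filtered and cell-free extract of mouse skin, together with PD0325901 for 5 h. PD0325901 (1 μM) inhibits MEK, the kinase that phosphorylates ERK, so these are the levels of the phosphatase genes in the presence of an inhibitor of the pathway that many of them answer to. All 3 libraries, replicates 1, 2 and 3, belong to this MG + PD0325901 condition and share every treatment. Levels without the inhibitor or without MG were not analysed here, and no change between conditions was computed. The study describes the fibroblasts as adult. The exact age and the sex of the mice, and whether each replicate came from its own animals, are not given in the sources used here.

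Values are normalized counts, the reads on a gene divided by 1 size factor for each library, and the underlying reads were recovered as whole numbers. Between 17244505 and 27037783 reads fell on genes in each library, of which the 10 phosphatase genes took 12284, 13227 and 9303 in replicates 1, 2 and 3. Detection required a minimum of 10 normalized counts in all libraries, which 12204 genes met. Fibroblast markers were detected for 8 of 8 genes, and 1 of these differed more than 2-fold between libraries. This was Lum, with 5073, 289 and 1164 normalized counts in replicates 1, 2 and 3. Krt15 and Krt1 of keratinocytes, Emcn of endothelial cells and Myod1 of skeletal muscle had no reads in any library. Keratinocyte markers, with 1 of 5 detected, summed to 81.6, 39.5 and 34.4 normalized counts in replicates 1, 2 and 3. Leukocyte markers, also with 1 of 5 detected, summed to 26.9, 41.6 and 90.1 normalized counts in replicates 1, 2 and 3. Replicate 2 lay apart from the others across the transcriptome, as it was more than 2-fold above both in 4.22% of the detected genes and more than 2-fold below both in 3.44%. Because these are bulk cultures, fewer cells of a type and less RNA per cell cannot be told apart.

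Of the 10 phosphatase genes, 9 were detected in every library and Dusp2 was not. Dusp1 was by far the most abundant, Dusp10 came next, and the classical ERK-specific enzymes Dusp5 and Dusp6 lay below the middle of the detected transcriptome. The levels of Dusp6, Dusp7 and Dusp8 were close in the 3 libraries, whereas Dusp4 and Dusp9 varied several-fold, both highest in replicate 2 and lowest in replicate 3. The plot of normalized counts by gene and library shows these levels with their counting error.

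**Figure D1:**
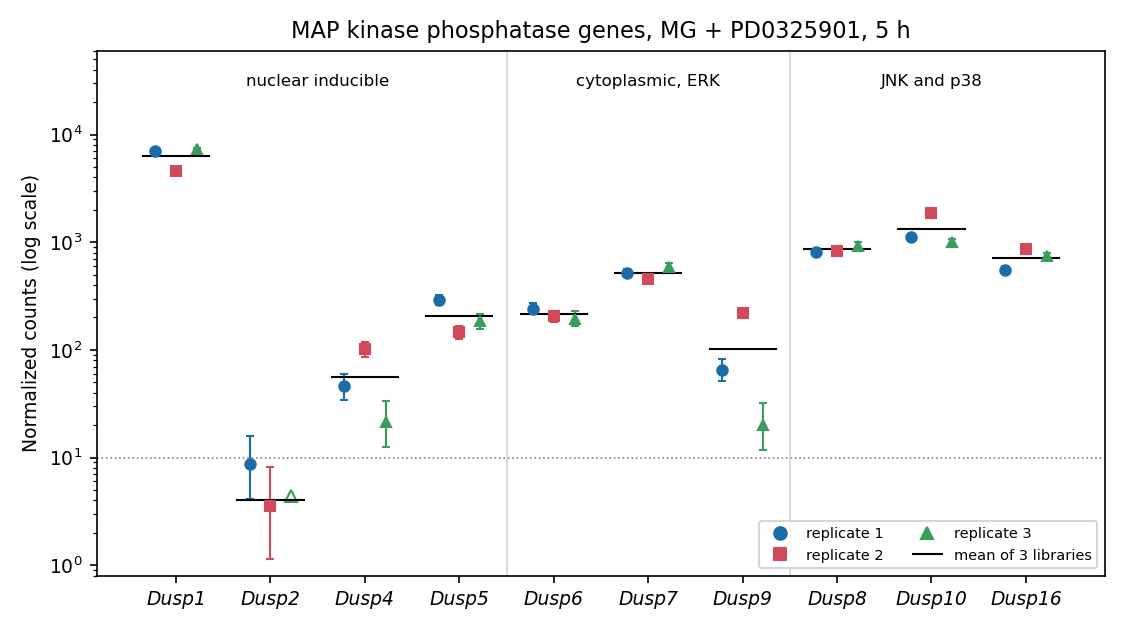
Normalized counts (log scale) of the 10 phosphatase genes in replicates 1, 2 and 3 of the MG + PD0325901 condition, grouped by location and substrate; error bars are 95% Poisson intervals of the reads, horizontal bars are means, the dotted line is the minimum of 10 normalized counts, and the open triangle is the upper end of that interval, 4.37, for Dusp2 in replicate 3, where no read was counted. Dusp1 stands above all other members in each library, and Dusp4 and Dusp9 have the widest gaps between libraries.

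Promoter sequences of 8 of the 10 members were found in RefSeq (GRCm38.p6), each covering 250 bases before and 50 bases from the transcript start, and those of Dusp4 and Dusp9 were not used here. The members' promoters were rich in CpG, with a median of 28 CpG and 67.8% GC against 7 and 52.7% over 32851 promoters of the same length. They were searched on both strands for short motifs bound by factors that growth factor and stress signaling act on. The full cyclic AMP response element (CRE, TGACGTCA) was found in 2 of 8, Dusp1 and Dusp8, and in 1.79% of all promoters. Its half-site TGACG, which lies within the full site, was found in 5 of 8 and in 20.8% of all. The CArG box, bound by serum response factor, was found in 1 of 8, Dusp5, and in 1.63% of all promoters. No member held the AP-1 motif TGANTCA (7.81% of all promoters), the ETS core CCGGAAG (8.86%), the TATA box TATAAA (13.6%) or the NF-kB motif (8.46%), which says only that these letters are not in this window. The GC-rich SP1 motif GGGCGG was found in 7 of 8 members and 35.7% of all promoters, CCAAT in 5 of 8 and 37.4%, and the E-box CACGTG in 2 of 8 and 7.15%. The 32851 promoters were not matched to the members in CpG, GC content or detection. The CRE, its half-site, the ETS core, the SP1 motif and the E-box each contain CG. A difference from promoters of like composition was not tested.

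The promoters of the most abundant, the steadiest and the CArG-bearing member are shown, because they hold the only full CRE and CArG matches among the 8 members searched. Capitals mark CRE sites, their half-sites on either strand and CArG boxes, and the sequences run from 5′ to 3′ on the strand of the gene, at chr17:26508423-26508722 (minus strand) for Dusp1, chr7:142095235-142095534 (minus strand) for Dusp8 and chr19:53528895-53529194 (plus strand) for Dusp5.
Dusp1: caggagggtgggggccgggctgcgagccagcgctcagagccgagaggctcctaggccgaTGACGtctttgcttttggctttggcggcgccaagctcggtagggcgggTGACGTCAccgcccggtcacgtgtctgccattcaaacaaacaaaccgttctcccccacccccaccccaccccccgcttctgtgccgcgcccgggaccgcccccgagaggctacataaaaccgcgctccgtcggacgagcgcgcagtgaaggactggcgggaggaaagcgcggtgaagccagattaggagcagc
Dusp8: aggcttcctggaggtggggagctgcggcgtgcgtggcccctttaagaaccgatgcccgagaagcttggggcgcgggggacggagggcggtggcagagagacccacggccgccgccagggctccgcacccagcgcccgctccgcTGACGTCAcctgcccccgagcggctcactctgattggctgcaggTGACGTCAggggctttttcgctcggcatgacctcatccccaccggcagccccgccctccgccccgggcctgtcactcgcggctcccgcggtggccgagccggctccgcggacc
Dusp5: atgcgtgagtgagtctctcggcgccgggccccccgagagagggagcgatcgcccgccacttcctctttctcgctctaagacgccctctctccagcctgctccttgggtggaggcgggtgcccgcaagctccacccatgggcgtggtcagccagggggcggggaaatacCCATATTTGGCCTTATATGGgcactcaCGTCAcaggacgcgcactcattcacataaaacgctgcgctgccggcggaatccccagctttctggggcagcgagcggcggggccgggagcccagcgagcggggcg
With the transcript start as base 0, the CRE of Dusp1 spans bases -143 to -136, and Dusp8 has 2, at -107 to -100 and at -63 to -56. The 2 CArG boxes of Dusp5 lie side by side, at -82 to -73 and at -72 to -63, ahead of a CRE half-site at -55 to -51. Dusp1 and Dusp8, which share the full CRE, had different orders of libraries, with replicate 2 lowest for Dusp1 and replicate 1 lowest for Dusp8. A match is a description of sequence and not evidence of binding in these cells.

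Among the inducible nuclear enzymes, Dusp1 (chromosome 17, 26505590 to 26562128, minus strand, GRCm38), an immediate-early gene whose product acts on p38, JNK and ERK, had 7014, 4618 and 7351 normalized counts in replicates 1, 2 and 3. Replicates 1 and 3 were within 1.05-fold of each other, and replicate 2 lay 1.52-fold below replicate 1 and 1.59-fold below replicate 3. The mean was 6328 ± 1490 normalized counts (SD, n = 3), and without replicate 2 it was 7182. Counting error was 1.27% in the library with the fewest reads, small beside the 23.5% between replicates. At its far upstream end, the annotated span of Dusp1 overlaps that of Ergic1, an opposite-strand gene with 7614 to 8711 normalized counts. Whether exons of the 2 genes overlap was not computed. The libraries were made with a stranded mRNA kit, but the strand setting of the read counting is not stated. How reads from that shared stretch were assigned is therefore not known.

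Dusp5 (chromosome 19, 53529109 to 53542431, plus strand), whose product inactivates ERK in the nucleus, had 291, 147 and 185 normalized counts in replicates 1, 2 and 3. Replicate 1 was the highest, 1.98-fold above replicate 2 and 1.57-fold above replicate 3. The 95% Poisson interval of replicate 1, 261 to 324 normalized counts, did not meet the intervals of replicate 2, 127 to 168, and replicate 3, 157 to 216, which overlapped each other. The mean was 207 ± 74.8 normalized counts (SD, n = 3).

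Dusp4 (chromosome 8, 34807297 to 34819894, plus strand), a nuclear phosphatase known as a target of ERK signaling, had 46.0, 101 and 21.3 normalized counts in replicates 1, 2 and 3, from 53, 144 and 18 reads. Each library was more than 2-fold from the next, and the counting intervals did not meet, the nearest being 12.6 to 33.7 in replicate 3 and 34.5 to 60.2 in replicate 1. Its mean was 56.3 ± 41.0 normalized counts (SD, n = 3). Dusp2 (chromosome 2, 127336159 to 127338376, plus strand), best known from activated immune cells, rested on 10, 5 and 0 reads, or 8.68, 3.52 and 0 normalized counts. The 95% Poisson interval of the 0 in replicate 3 reached 4.37 normalized counts and that of replicate 1 began at 4.16, so that the intervals of all 3 libraries overlapped, by little in this pair.

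The cytoplasmic phosphatases of ERK were led by Dusp7 (chromosome 9, 106368632 to 106375724, plus strand), with 517, 451 and 587 normalized counts in replicates 1, 2 and 3. Dusp7 varied little, with a mean of 518 ± 67.9 normalized counts (SD, n = 3) and 1.30-fold from its lowest to its highest library. Dusp6 (chromosome 10, 99263231 to 99267489, plus strand), the feedback phosphatase that ERK activity itself induces in many cell types, had 242, 206 and 196 normalized counts. Its mean was 215 ± 24.6 (SD, n = 3), and the counting intervals of the 3 libraries, from 215 to 272, from 183 to 231 and from 167 to 228, all overlapped. The 11.4% coefficient of variation of Dusp6 was not far above the counting error of 7.78% in its smallest library. Overlapping intervals do not show equal levels, and a difference in Dusp6 between these cultures was not tested.

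Dusp9 (chromosome X, 73639419 to 73643514, plus strand), an ERK phosphatase known for its part in placenta and in pluripotent cells, was the most variable of the detected members. It had 65.1, 220 and 20.1 normalized counts in replicates 1, 2 and 3, from 75, 312 and 17 reads. Replicate 2 was 3.38-fold above replicate 1, which in turn was 3.23-fold above replicate 3, and no counting intervals met. Between replicates 2 and 3 the difference was 10.9-fold. Dusp6 and Dusp9, of the same subgroup, thus spanned 1.24-fold and 10.9-fold. Without replicate 2, the mean was 42.6 normalized counts for Dusp9 and, in the same way, 33.7 for Dusp4.

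The 3 phosphatases of JNK and p38 were all well detected. Dusp10 (chromosome 1, 184013302 to 184075636, plus strand), which acts on p38 and JNK, stood at 1111 normalized counts in replicate 1, 1886 in replicate 2 and 997 in replicate 3, on average 1331 ± 483 (SD, n = 3). Replicate 2 was 1.70-fold above replicate 1 and 1.89-fold above replicate 3, and the counting intervals of replicates 1 and 3, whose mean was 1054, overlapped. An opposite-strand gene, 1700056E22Rik, overlaps Dusp10 but had 30.8 to 46.0 normalized counts only. Dusp16 (chromosome 6, 134715468 to 134792625, minus strand), a JNK phosphatase that moves between nucleus and cytoplasm, had 555, 858 and 740 normalized counts and a mean of 717 ± 153 (SD, n = 3). Replicate 2 was again the highest, 1.55-fold above replicate 1.

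Dusp8 (chromosome 7, 142079490 to 142095843, minus strand), which acts on JNK and p38 and is best known from brain and heart, was the steadiest of all members. Its normalized counts were 817 in replicate 1, 831 in replicate 2 and 930 in replicate 3, on average 859 ± 61.9 (SD, n = 3). From lowest to highest it spanned 1.14-fold, and the counting intervals of each pair overlapped. In replicate 2, Dusp10 and Dusp16 were at their highest and Dusp8 lay between the others, while of the inducible nuclear genes Dusp1 and Dusp5 were at their lowest and Dusp4 at its highest. Over the 9 detected members, 4 were highest in replicate 2, against 40.6% of all detected genes, and 3 were lowest in it, against 37.3%, so neither count stood far from the background.

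The spread between replicates was then set against that of all detected genes. Of the 9 detected members, 2, Dusp4 and Dusp9, spanned more than 2-fold from lowest to highest, on normalized counts plus 1, against 21.6% of the 12204 detected genes. At this limit a share of 2 in 9 is close to the background. The same 2 members passed a 3-fold limit, which 7.7% of all detected genes did. They also passed the 2-fold limit without replicate 1, where 12.8% of genes did, without replicate 2 (6.39%) and without replicate 3 (15.4%). On the scale of log2(normalized count + 1), the replicates of a typical member had an SD of 0.37, the median of 9, against a median of 0.30 for all detected genes. Without replicate 2 these medians were 0.22 and 0.20. Dusp5 (1.98-fold) and Dusp10 (1.89-fold) lay just under the limit. With libraries scaled to equal totals Dusp10 passed the limit as well, and with TMM scaling Dusp5 did. The plot of fold range against mean level shows the members within the cloud of all genes.

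**Figure D2:**
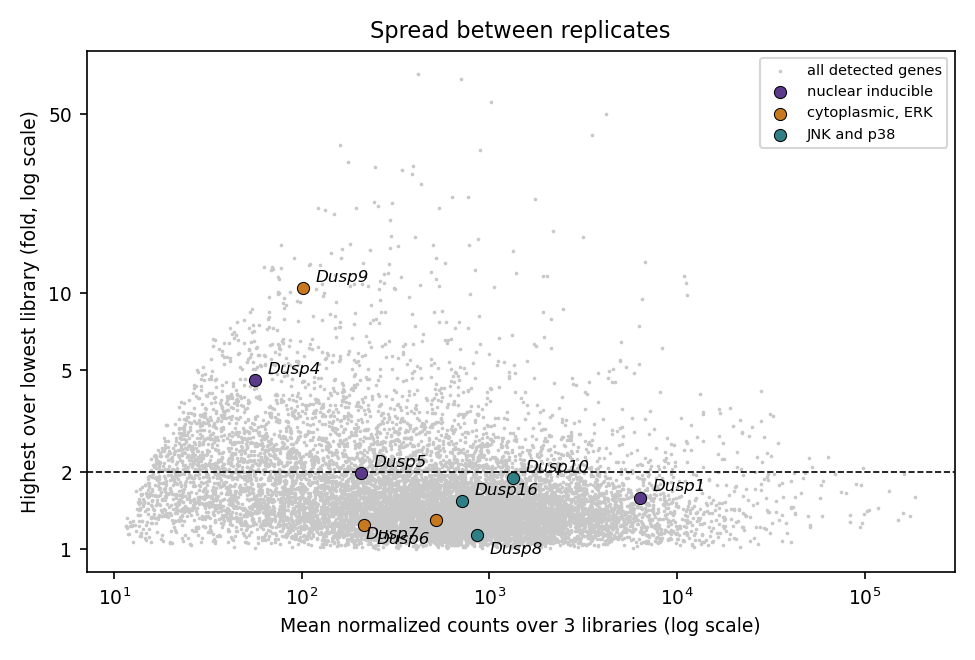
Highest over lowest library (fold, log scale, on normalized counts plus 1) against the mean of the 3 MG + PD0325901 libraries (normalized counts, log scale); grey points are the 12204 detected genes, colored points the 9 detected phosphatase genes by subgroup, and the dashed line is 2-fold. Dusp9 at 10.4-fold and Dusp4 at 4.59-fold lie above the line, and the other 7 members lie below it.

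Dusp4 and Dusp9 were also the 2 members for which replicate 2 was more than 2-fold above both others, a pattern met by 4.22% of the detected genes, and the same 2 for which replicate 3 was more than 2-fold below both others, met by 1.29%. No member had replicate 2 more than 2-fold below both others, against 3.44% of the detected genes. Nor did any member have replicate 1 that far above both others (1.41% of the detected genes), replicate 1 below both (1.22%) or replicate 3 above both (0.729%). The biological coefficient of variation that edgeR estimated for Dusp9 was 67.4%, where the trend over genes of its abundance was 40.3%. For Dusp4 it was 52.6% with a trend of 42.2%. The other detected members were at or below 35.8%, with Dusp10 at 28.0% slightly above its trend of 25.4% and the rest below theirs. Without replicate 2 the common value over all genes fell from 32.0% to 22.5%, and all 9 members were lower, between 17.4% for Dusp10 and 38% for Dusp9. Dusp4 was then at 34.3%, with a trend of 32.8% for both Dusp4 and Dusp9. These estimates are drawn toward the trend over all genes, and strongly so with few libraries. The lower values of the 9 members therefore cannot be told apart from the fall over all genes. Dusp4 and Dusp9 still differed more than 2-fold between replicates 1 and 3.

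Some markers of muscle and vessel were also highest in replicate 2. Des, the muscle intermediate filament gene, stood at 212 normalized counts in replicate 1, 1208 in replicate 2 and 77.0 in replicate 3, and so ordered the libraries as Dusp4 and Dusp9 did. Acta1, the skeletal muscle actin gene, had 2429, 7286 and 5586, with replicate 1 and not 3 the lowest, and Tek, the receptor of angiopoietins, had 6.95, 185 and 2.37. Of the 5 skeletal muscle markers, 2 were detected, and Myog and Ckm had at most 1.19 normalized counts, with Myod1 at 0. The summed muscle list was 2641, 8494 and 5664 normalized counts in replicates 1, 2 and 3. Of the 5 endothelial markers none was detected in all libraries, the list summed to 20.8, 190.2 and 5.93, and Pecam1, Cdh5 and Kdr had at most 9.55 in any library. Des, Acta1 and Tek were singled out from these lists after their values were seen. Their part in the levels of Dusp4 and Dusp9 was not tested.

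**Figure D3:**
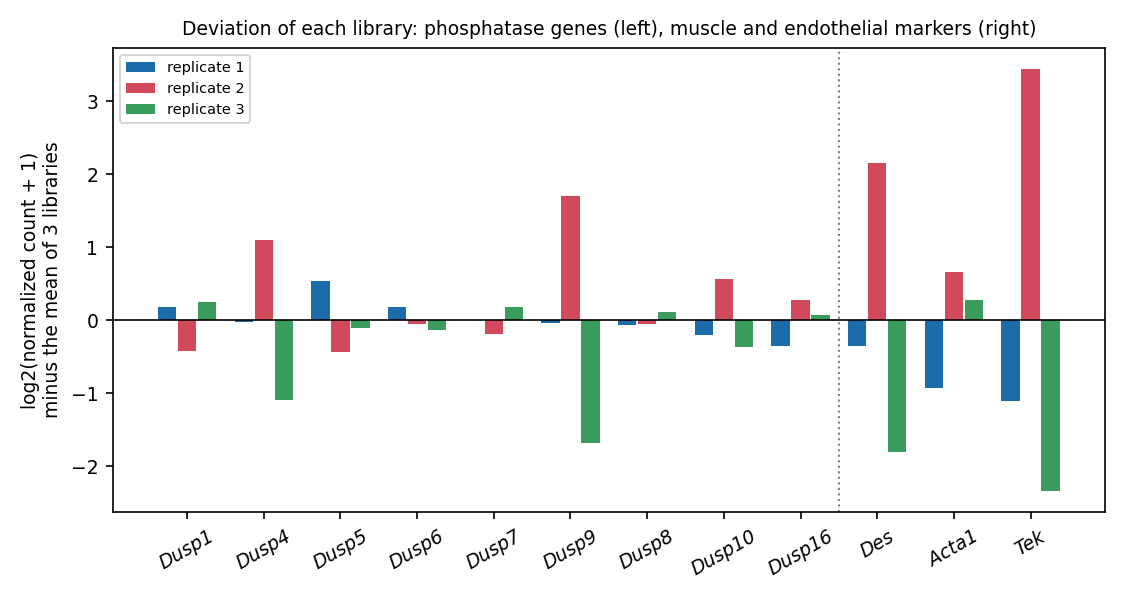
Deviation of each library from the mean of the 3 libraries, on log2(normalized count + 1), for the 9 detected phosphatase genes (left of the dotted line) and for Des, Acta1 and Tek (right). Dusp4 and Dusp9 deviate by 1.11 and 1.71 in replicate 2 and by -1.09 and -1.68 in replicate 3, while Dusp6, Dusp7 and Dusp8 deviate by at most 0.19.

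To compare genes with one another, levels were divided by the exonic length of each gene, since longer transcripts collect more reads. Per kb of exon, Dusp1 reached 2118 normalized counts in replicate 1, 1395 in replicate 2 and 2220 in replicate 3, and its mean level was above that of 95.5% of the 11623 detected genes with a length. Dusp10 followed with 365, 620 and 328 per kb, above 81.7% of these genes. The lowest Dusp1 library exceeded the highest Dusp10 library, and in each library Dusp1 was at least 2.25-fold above Dusp10. Dusp8 and Dusp7, with mean levels of 176 ± 12.7 and 154 ± 20.2 per kb (SD, n = 3), came next. Their values overlapped between libraries, while within each library Dusp8 was above Dusp7, by 1.09-fold, 1.27-fold and 1.09-fold in replicates 1, 2 and 3.

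Lower in the order, Dusp16 had 92.0 ± 19.6, Dusp5 83.9 ± 30.2 and Dusp6 68.5 ± 7.84 normalized counts per kb (SD, n = 3), above 45.9%, 43.6% and 38.9% of the detected genes. Their values overlapped, and Dusp5 was above Dusp6 in replicates 1 and 3 but below it in replicate 2. Dusp9, at 37.4 ± 38.5 per kb (SD, n = 3), was above Dusp6 in replicate 2 only, and Dusp4, at 20.5 ± 15.0, was above Dusp9 in replicate 3 only. The ERK feedback gene Dusp6 was therefore a minor transcript of the family in this condition, with Dusp1 between 21.2-fold and 35.6-fold above it per kb. Without division by length, Dusp16 rose above Dusp7, and Dusp6 above Dusp5.

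**Figure D4:**
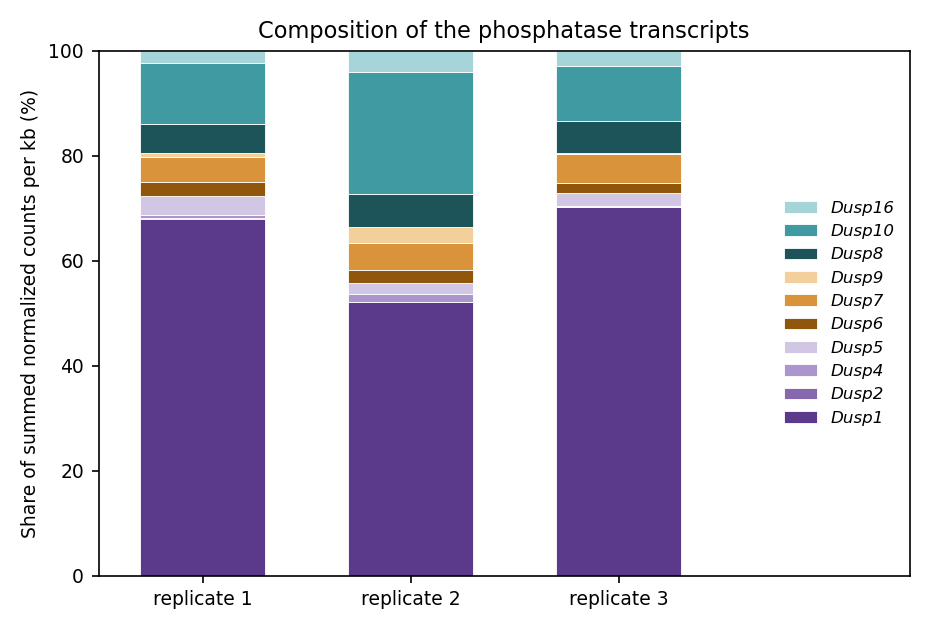
Share (%) of each gene in the summed normalized counts per kb of the 10 phosphatase genes, by library; purple shades are the inducible nuclear genes, orange shades the cytoplasmic ERK phosphatases and green shades the JNK and p38 phosphatases. Dusp1 holds 68.0%, 52.2% and 70.2% in replicates 1, 2 and 3, and Dusp10 holds 23.2% in replicate 2 against 11.7% and 10.4% in replicates 1 and 3.

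The make-up of the family, taken as shares of its summed level per kb, was dominated by the inducible nuclear group, through Dusp1. This group held 72.4%, 55.8% and 72.8% in replicates 1, 2 and 3, on average 67.0% ± 9.71 (SD, n = 3), and Dusp1 by itself 63.5% ± 9.85. The JNK and p38 phosphatases held 19.4%, 33.7% and 19.4%, a mean of 24.2% ± 8.24 (SD, n = 3). The cytoplasmic ERK phosphatases held the least, 8.19%, 10.5% and 7.74%, a mean of 8.81% ± 1.48 (SD, n = 3). The order of the 3 groups was the same in every library, and replicates 1 and 3 were nearly alike, with means of 72.6%, 19.4% and 7.96% for the groups as listed when replicate 2 was left out. In replicate 2 a lower Dusp1 and a higher Dusp10 moved the balance toward the JNK and p38 group, and such shares are tied, since one can rise only as others fall.

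With Dusp1 set aside, the JNK and p38 phosphatases were the largest group in every library, with 60.5%, 70.4% and 65.2% of the rest. The other inducible nuclear genes held 13.9%, 7.66% and 8.77%. Among the cytoplasmic ERK phosphatases Dusp7 held 60.3%, 47.8% and 71.5%, so that Dusp7 and not Dusp6 was the main transcript of this group in each library. Dusp6 held 30.3%, 23.4% and 25.5%, and Dusp9 reached 28.8% in replicate 2 against 9.37% and 3.03% in replicates 1 and 3.

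The kinases that these enzymes act on were read from the same libraries. Of 9 MAP kinase genes, 8 were detected, and 1 of these, Mapk12 (p38 gamma), had a range over 2-fold, with 84.2, 250.1 and 102 normalized counts in replicates 1, 2 and 3. Mapk3, which encodes ERK1, had 1139 ± 237 normalized counts per kb (SD, n = 3), the highest of these genes, and lay below Dusp1 in each library. For the JNK genes Mapk9 and Mapk8 the levels were 183 ± 16.2 and 55.6 ± 6.46 per kb, and Mapk14, the p38 alpha gene, had 358 ± 101 (SD, n = 3). Among the detected kinases Mapk12 was the lowest, with 38.2 ± 23.9 per kb, near the 37.4 ± 38.5 of Dusp9 (SD, n = 3).

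**Figure D5:**
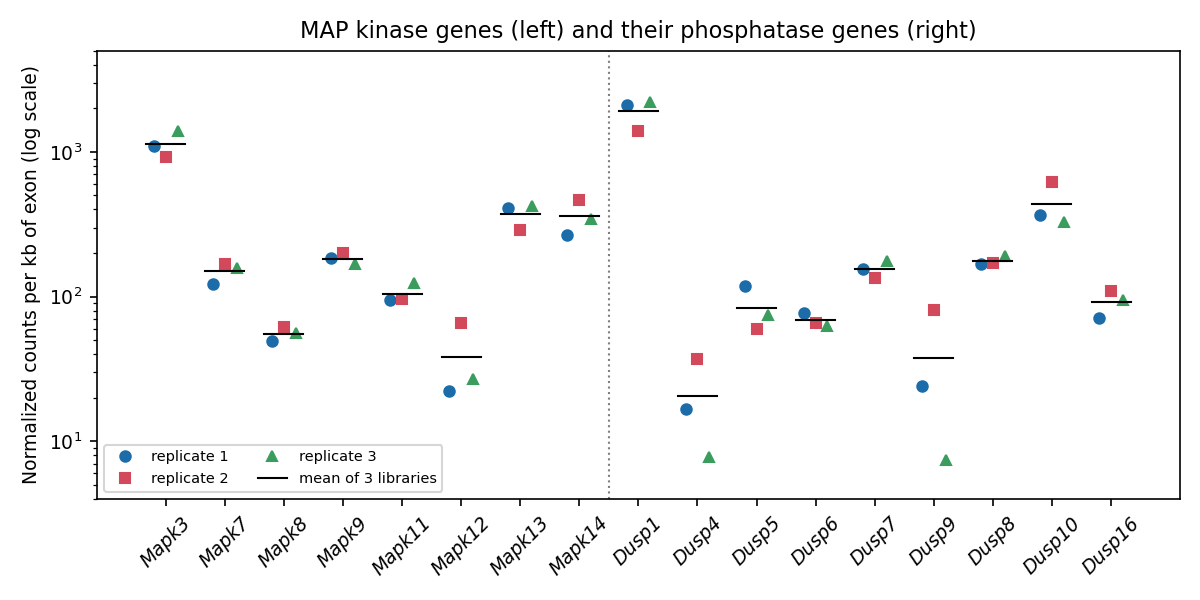
Normalized counts per kb of exon (log scale) of 8 detected MAP kinase genes (left of the dotted line) and the 9 detected phosphatase genes (right) in replicates 1, 2 and 3; horizontal bars are means. Dusp1 has the highest mean of the 17 genes, 1911 per kb, and Mapk3 the next, 1139 per kb.

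Upstream, 6 of 7 MAP kinase kinase genes were detected and none had a range over 2-fold. Map2k1 and Map2k2, the genes of MEK, the target of PD0325901, had 933 ± 117 and 471 ± 86.8 normalized counts per kb (SD, n = 3). Of the 6 detected, Map2k3 was the highest with 1156 ± 301 and Map2k5 the lowest with 131 ± 16.4. Among the atypical dual-specificity phosphatases, small enzymes without the kinase-binding domain of the family, 9 of 12 were detected, again none with a range over 2-fold. Dusp3 led the 9 detected genes with 518 ± 74.2 per kb and Dusp22 was the lowest of them with 13.4 ± 3.31 (SD, n = 3). Of 8 other phosphatases that act on MAP kinases, 5 were detected, from Ppp2cb, a catalytic subunit of PP2A, with 1445 ± 73.1 per kb to Ppm1d with 59.9 ± 1.62. Ptpn5, Ptpn7 and Ptprr, the tyrosine phosphatases of this list, had at most 14.8 normalized counts in any library.

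Among feedback inhibitors and early targets of ERK, 13 of 14 were detected and 5 of these 13 had a range over 2-fold, against 21.6% of all detected genes. The highest was Ier3, an early response gene, with 22607, 6647 and 21423 normalized counts in replicates 1, 2 and 3. Replicate 2 was the lowest for Ier3, as it was for Dusp1, but the list was split. Of its 13 detected genes, 7 were lowest in replicate 2, against 37.3% of all detected genes, and 6 were highest in it, against 40.6%. The least abundant of the 13 detected genes was Egr1, an immediate-early transcription factor, with 57.3, 16.2 and 30.8 normalized counts in replicates 1, 2 and 3. On the scale of log2(normalized count + 1), the median SD in this list was 0.40, near the 0.37 of the phosphatase genes.

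AU-rich elements in the 3′ untranslated region, which mark many early response transcripts for rapid decay, were counted in the longest annotated one of each member (GENCODE M21). The pentamer ATTTA occurred 4 times in the 690 bases of Dusp1 and 4 times in the 581 bases of Dusp2, or 5.80 and 6.88 per kb. The median was 1.26 per kb over 11093 detected genes and 1.52 over the 10 members. Dusp5, Dusp6 and Dusp9 had 1 each, and Dusp7, with 1778 bases, had none. The longer motif TTATTTATT was found in 2 of 10 members, Dusp1 and Dusp8, and in 8.34% of the detected genes. Dusp1 was therefore both the most abundant member and dense in ATTTA, as was Dusp2, the least abundant.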

How the data were processed

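RNA from 3 MG + PD0325901 cultures was made into libraries with a stranded mRNA kit and sequenced as single-end reads. Per the labels and the study's methods, the authors checked reads with FastQC 0.11.5, aligned them to mm10 with TopHat2 2.0.13, used SAMtools 0.1.19.24, counted reads per gene with HTSeq 0.5.3p3 and normalized with DESeq. The deposited values are a signal, reads divided by 1 size factor per library. The gene annotation and the strand setting of the read counting are not given in the sources used here. The table also has 3 columns with values that no sample label matches, and these were left out of every step.

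Each column held whole multiples of 1 step, within 0.01 reads for 100% of the values, and the recovered libraries held 22540518, 27037783 and 17244505 reads. Poisson intervals (95%) cover counting error only, as no molecular identifiers were used. Genes with 10 or more normalized counts in every library were analysed, with a pseudocount of 1 for ranges and log2 values. Levels per kb used the union of exons in GENCODE M21, which 39518 of 43472 rows matched. Biological coefficients of variation came from edgeR 4.0.16 (R 4.3.3) on the recovered reads of 12352 genes, the other values from Python 3.11.15, numpy 2.4.6, scipy 1.17.1 and pandas 2.3.3. Code for counts across genes was checked on data with known answers.

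With a single condition there was no test between groups, and no p-value was computed. The libraries are labelled as replicates, but nothing says that they came from separate animals, so their spread may be partly technical. The members and gene lists were chosen with earlier results of these data known. All members were named, and from each other list of pathway genes, but not of cell type markers, the highest and lowest detected gene per kb, the kinase genes Mapk3, Mapk8, Mapk9 and Mapk14, and Map2k1 and Map2k2. A gene of the kinase list is not reported here. Genes named outside this rule, among them marker genes, Ptpn5, Ptpn7, Ptprr, Ergic1 and 1700056E22Rik, were chosen after their values were seen. Alternatives changed the fold limit, pseudocount, filter, scaling, length and libraries.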

Additional observations from a re-analysis of the deposited data

How the results depend on the processing

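No paired analysis was possible because all libraries belong to 1 condition. The number of members with a range over 2-fold, 2 as reported, was 6 with a 1.5-fold limit, where 48.5% of all detected genes passed, and 2 or 3 under every other alternative tried, where the share of all genes ran from 6.39% without replicate 2 to 42.3% with no filter. The median SD of log2 values over the detected members, 0.37 as reported, was 0.22 without replicate 2 and 0.44 without replicate 3, against 0.20 and 0.30 for all detected genes. The share of the cytoplasmic ERK phosphatases, 8.81% as reported, was 7.13% when the longest transcript gave the length. The other subgroup shares moved by less than their SD between replicates. So did the mean level of each of the 10 members under all 5 alternatives, 50 values in all. Where 1 of the 3 libraries was left out this was fixed in advance, because a mean of 3 cannot then move by its SD. Without replicate 2, for example, the mean of Dusp9 went from 102 to 42.6 normalized counts. Only the changes of scaling, and of length for the shares, were not fixed in advance. Yet the rescaled values kept the same average library total, which left the mean levels little room to move. The mean of Dusp9 was 104 with equal totals and 101 with TMM scaling. Ranks changed for Dusp5, Dusp6, Dusp7 and Dusp16 without division by length. Depth limits Dusp2 most, followed by Dusp4 and Dusp9, which rested on 17 or 18 reads in replicate 3.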
